A study of Mus musculus with 61 samples.

Results

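The endocrine transcription factors that act downstream of Neurogenin 3 in the developing pancreas were followed across mouse pancreatic duct organoids forced to express reprogramming factors. The set was chosen by name and holds 10 of the 46078 mouse genes in the count tables: Neurog3 itself, Neurod1, Nkx2-2, Pax4, Pax6, Insm1, Rfx6, Fev, Isl1 and Myt1. Each was found in the tables by its Ensembl identifier, and all 10 passed the filter on low counts that left 24004 genes for testing. From the libraries without Ngn3 alone, 9 of the 10 would have passed it, Fev being the exception.

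The organoids were grown from adult C57BL/6 pancreatic ducts, were infected with doxycycline-inducible lentiviruses carrying Ngn3 (the protein encoded by Neurog3), Pdx1 or MafA coding sequences, each joined to its own fluorescent reporter, and were kept in doxycycline for 8 days. Ngn3 was either wild type (WT) or the phospho-mutant 6SA, in which serines that cyclin-dependent kinases can phosphorylate are changed to alanine. Cells were sorted by reporter colour into pools of 50 cells, giving 12 conditions of 2 to 3 samples: Ngn3-Pdx1, Ngn3-MafA and Ngn3-Pdx1-MafA for each form of Ngn3, and the Pdx1, MafA and Pdx1-MafA cells that lacked the Ngn3 reporter and were sorted from the same WT or 6SA cultures. The comparison cells therefore also went through infection and doxycycline, and uninfected cells and cells with Ngn3 alone were not analysed here. Samples numbered 1 and 2 came from passage 2 of the organoids and those numbered 3 from passage 5, so that number and passage cannot be told apart. Because the vectors carry the Neurog3 coding sequence, its counts mix vector and endogenous transcripts, and a sorted pool shows neither which cells within it express a gene nor how much each one does: fewer expressing cells and less RNA per cell cannot be told apart.

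Neurogenin 3 is a basic helix-loop-helix activator that switches on briefly in pancreatic progenitors and commits them to the endocrine lineage, from which the hormone-producing islet cells arise. It acts by binding E-boxes, short DNA elements that read CANNTG, in the control regions of further transcription factors. Some of these factors carry the endocrine programme forward after Ngn3 has faded, and others share it out among the islet cell types.

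For 8 of the 10 genes a RefSeq start site was at hand on the GRCm38.p6 build, with 11 promoters between them. In the 250 bases before the start, CANNTG on either strand was present in 7 of the 11 promoters, which belong to 6 of the 8 genes. Of all 32807 promoters in the table, 66.2% held it within the same length. The narrower E-box CAGATG, which reads CATCTG on the other strand and is contained in the CANNTG count, was present in 14.5% of all promoters and here for Nkx2-2 only. The upstream sequences of Neurog3 (chr10:62132840-62133089, plus strand), Neurod1 (chr2:79456637-79456886, minus strand) and Nkx2-2 (chr2:147186403-147186652, minus strand) are shown because they place the E-boxes of the forced factor's own gene, of its closest helix-loop-helix relative in the set and of the promoter with the most matches. CANNTG matches are in capitals, and each sequence runs 5′ to 3′ on the gene's strand and ends at the base before the start.
Neurog3: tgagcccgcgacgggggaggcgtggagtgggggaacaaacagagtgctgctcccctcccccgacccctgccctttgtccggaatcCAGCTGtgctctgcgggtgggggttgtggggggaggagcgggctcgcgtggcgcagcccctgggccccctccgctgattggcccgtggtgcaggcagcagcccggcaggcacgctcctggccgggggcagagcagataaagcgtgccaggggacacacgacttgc
Neurod1: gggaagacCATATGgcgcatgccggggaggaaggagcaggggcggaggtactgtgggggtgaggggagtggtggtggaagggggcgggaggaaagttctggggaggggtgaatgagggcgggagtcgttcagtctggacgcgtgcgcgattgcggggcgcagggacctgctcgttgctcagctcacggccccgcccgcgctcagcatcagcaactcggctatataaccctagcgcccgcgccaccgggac
Nkx2-2: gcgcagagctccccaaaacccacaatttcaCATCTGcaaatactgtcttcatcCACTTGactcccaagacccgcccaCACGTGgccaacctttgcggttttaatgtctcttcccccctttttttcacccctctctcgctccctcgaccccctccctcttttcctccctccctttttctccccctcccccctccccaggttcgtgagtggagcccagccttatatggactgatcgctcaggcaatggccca
The single match of Neurog3 begins 165 bases before the start and that of Neurod1 begins 242 bases before it. The 3 matches of Nkx2-2 begin 220, 197 and 173 bases before its start. No binding was measured in this experiment, so these are matches of letters.

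Libraries that held at least 1000000 gene counts were kept, and libraries of the same sample (its technical repeats) were summed. This left 58 of 61 libraries, 29 with and 29 without Ngn3, in 32 samples of 2579583 to 19461008 gene counts, 17 with and 15 without Ngn3. Levels are given as counts per 1000000 (CPM) of the library size as rescaled by edgeR's TMM factors, which ran from 0.697 to 1.18. On that scale 3 counts, the upper limit that a count of 0 allows, came to between 0.136 and 1.01 CPM depending on the sample. That limit covers counting error only, since reads copied by PCR are not independent molecules. Technical repeats are not separate replicates, and p-values measure the spread between these samples. The 9 endocrine secretory markers summed to 1240 to 16279 CPM in samples with Ngn3 and to 48.6 to 115 CPM in samples without it. The 11 duct markers summed to 2595 to 23085 CPM and 19577 to 68130 CPM, respectively, so duct genes were still present in the cells with Ngn3.

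Neurog3 was read first, as the check of the Ngn3 labels. The gene lies at chr10:62133090-62134763 on the plus strand and is a single exon. In WT cells its level in replicates 1, 2 and 3 was 73.2, 38.1 and 7.87 CPM with Ngn3-Pdx1, 53.6, 212 and 32.7 CPM with Ngn3-MafA, and 196, 167 and 14.6 CPM with all 3 factors. In 6SA cells it was 226, 34.9 and 38.8 CPM with Ngn3-Pdx1, 133, 62.6 and 24.9 CPM with Ngn3-MafA, and 163 and 329 CPM in the 2 samples with all 3 factors. None of the 15 samples without Ngn3 exceeded 0.788 CPM, and they held 46 Neurog3 reads between them. The groups did not overlap, and the log2 difference was 8.63 ± 0.61 (SE, adjusted p = 4.56e-11, edgeR's quasi-likelihood test). Against the cells without Ngn3 the rise was at least 71.7-fold in WT Ngn3-Pdx1 cells and at least 160-fold in WT Ngn3-MafA cells. These are lower bounds, since the reference held 3 or fewer counts in each sample. In the other combinations the plain ratio of means ran from 149-fold in 6SA Ngn3-Pdx1 cells to 1326-fold in 6SA cells with all 3 factors. Bounds and ratios cannot be ranked together. The WT samples at passage 5 were the lowest of their conditions. A gene on the opposite strand, Fam241b, shares 273 exon bases with Neurog3, and whether the authors' counting used strand is not given in the sources used here.

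**Figure D1:**
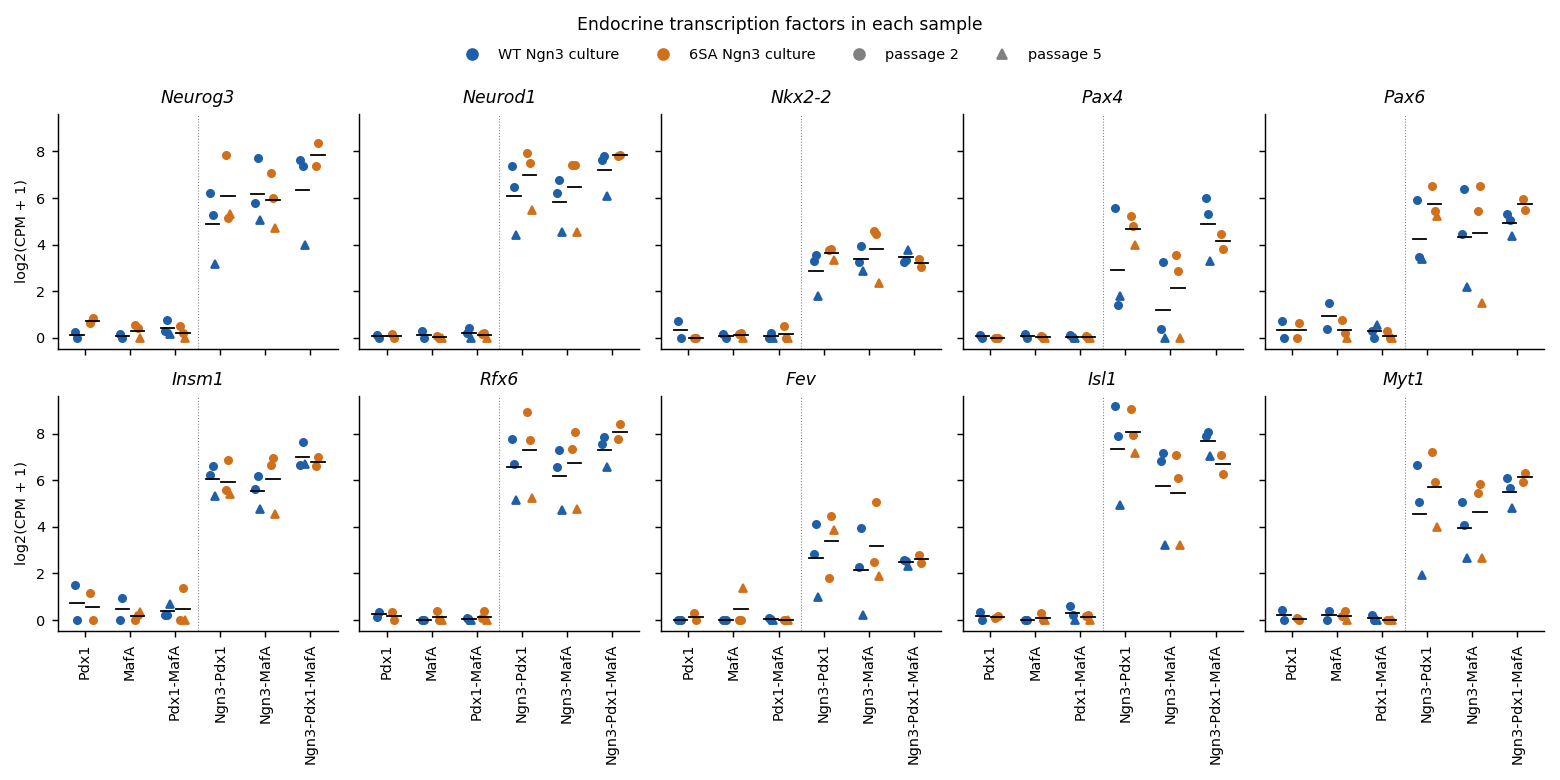
Level of each of the 10 factors, as log2(CPM + 1), in every sample (points), by transgene combination, with colours for WT and 6SA cultures, triangles for passage 5 and black lines for condition means. The samples without Ngn3, left of the dotted line, lie at or under 1.85 CPM for every factor, whereas for 7 of the 10 factors all 17 samples with Ngn3 lie above all 15 without it.

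All 10 factors were higher in cells with Ngn3 than in cells without it. Neurog3 is counted among them here and below. The vectors carry it and the cells were sorted for its reporter, so its rise is no test of a response. Across the 3 factor combinations and both forms of Ngn3, the difference passed an adjusted p of 0.05 for 10 of 10 by edgeR's quasi-likelihood test, against 11.1% of all genes tested that were higher and 10.5% that were lower. For 7 factors every one of the 17 samples with Ngn3 lay above every one of the 15 without, which was the case for 0.542% of all genes. On plain gene counts 8 factors met this. The exceptions were Pax4 and Fev, with 15 of the 17 samples above the highest sample without Ngn3, and Pax6, with 16 of 17. The fitted log2 difference had a median of 8.40 over the 10 factors and of 0.07 over all genes. Since fitted values of genes near 0 depend on the prior count, the ratio of mean CPM was also taken with the level without Ngn3 set to at least 3 counts per sample, and its median over the factors was then 7.14 on the log2 scale. Scaling by plain library totals moved the median of all genes to 0.28, a shift small beside any of these differences.

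Neurod1 (chr2:79452521-79456751, minus strand), a helix-loop-helix factor that Ngn3 activates and that maintains endocrine differentiation, was close to absent without Ngn3, with 13 reads in 15 samples and at most 0.349 CPM. With Ngn3 it read 163, 87.3 and 20.01 CPM in WT Ngn3-Pdx1 cells, 73.6, 109.9 and 22.1 CPM in WT Ngn3-MafA cells, and 199, 222 and 67.5 CPM in WT cells with all 3 factors. In 6SA cells the same combinations gave 240.2, 183 and 43.4 CPM, 169.5, 170.2 and 22.2 CPM, and 220.1 and 232 CPM. The levels of all passage 2 samples exceeded those of all passage 5 samples, and the log2 difference from cells without Ngn3 was 10.33 ± 0.56 (SE, adjusted p = 4.77e-13, edgeR). Because the reference samples held so few reads, fold changes by combination are lower bounds. They were at least 162-fold in WT and 615-fold in 6SA cells with Ngn3-Pdx1, and at least 439-fold and 653-fold with all 3 factors. Neurod1 shares 201 exon bases with Cerkl on its own strand and 154 with Gm26755 on the other.

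Rfx6 (chr10:51677756-51730432, plus strand), a winged-helix factor needed for islet cell formation, had the largest fitted difference of the set, 10.92 ± 0.65 on the log2 scale (SE, adjusted p = 4.53e-12, edgeR). It read 218, 104 and 34.8 CPM in WT Ngn3-Pdx1 cells, 94.6, 158 and 25.0 CPM in WT Ngn3-MafA cells and 184, 227 and 92.7 CPM in WT cells with all 3 factors. In 6SA cells it read 479, 213 and 36.3 CPM, 161, 266 and 26.1 CPM, and 214 and 343 CPM. Samples without Ngn3 held 16 reads in all and did not pass 0.289 CPM, so the groups were far apart in every combination. The ratio of mean levels over all samples was 1862, but it divides by a mean of only 0.0908 CPM. With the level without Ngn3 set to at least 3 counts per sample, the log2 ratio was 8.62. On that scale Isl1 stood above Rfx6, at 8.71. Here too each passage 5 sample was the lowest of its condition.

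Insm1 (chr2:146221921-146225020, plus strand), a zinc-finger factor of endocrine and neuroendocrine cells, varied least between passages among the abundant factors. Its levels were 74.1, 95.1 and 38.9 CPM in WT Ngn3-Pdx1 cells, 48.9, 70.9 and 26.3 CPM in WT Ngn3-MafA cells, and 100.04, 197 and 102 CPM in WT cells with all 3 factors. In 6SA cells they were 46.1, 114 and 41.2 CPM, 100.1, 123 and 22.2 CPM, and 96.0 and 126 CPM. In the 15 samples without Ngn3 it held 66 reads, with a highest value of 1.80 CPM, and it was detected in 11 of their 29 libraries, against 19 for Neurog3. The log2 difference was 7.70 ± 0.60 (SE, adjusted p = 2.44e-10, edgeR).

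Myt1 (chr2:181763332-181827797, plus strand), a zinc-finger factor that works together with Ngn3 in endocrine progenitors, ranged from 2.79 to 148 CPM with Ngn3, with a median of 42.3 CPM. Its highest samples were replicate 1 of 6SA and of WT Ngn3-Pdx1 cells, at 148 and 99.6 CPM, and its lowest was replicate 3 of WT Ngn3-Pdx1 cells. Without Ngn3 it held 12 reads and at most 0.361 CPM. The groups did not overlap, and the log2 difference was 9.13 ± 0.70 (SE, adjusted p = 4.92e-10, edgeR).

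Isl1 (chr13:116298281-116309689, minus strand), a LIM-homeodomain factor of maturing islet cells, spanned the widest range of CPM in the set. It read 574, 235 and 30.0 CPM in WT Ngn3-Pdx1 cells, 112, 144 and 8.17 CPM in WT Ngn3-MafA cells, and 234, 267 and 130.2 CPM in WT cells with all 3 factors. In 6SA cells it read 529.7, 246 and 142 CPM, 132, 68.1 and 8.40 CPM, and 134 and 76.4 CPM. In passage 2 the Ngn3-Pdx1 samples all stood above the Ngn3-MafA samples, and no sample without Ngn3 passed 0.536 CPM. The log2 difference between cells with and without Ngn3 was 10.54 ± 0.70 (SE, adjusted p = 2.27e-11, edgeR).

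Pax6 (chr2:105668900-105697364, plus strand), a paired-homeodomain factor required for hormone gene expression in islet cells, read from 1.83 to 90.8 CPM with Ngn3, with a median of 39.0 CPM. The lowest sample, replicate 3 of 6SA Ngn3-MafA cells, fell just under the highest sample without Ngn3, which read 1.85 CPM. The log2 difference was 6.92 ± 0.67 (SE, adjusted p = 1.39e-08, edgeR). Nkx2-2 (chr2:147177546-147194243, minus strand), a homeodomain factor of beta and other islet cells, was modest but steady at 2.46 to 22.7 CPM, with a median of 9.22 CPM, against at most 0.631 CPM without Ngn3. Its log2 difference was 6.83 ± 0.58 (SE, adjusted p = 2.04e-09, edgeR). The antisense gene Nkx2-2os, which shares 278 exon bases with it, held 2 counts over the kept libraries.

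Pax4 (chr6:28442334-28449353, minus strand), a paired-homeodomain factor that favours the beta and delta cell fates, was the least regular member. It read 46.4, 1.69 and 2.46 CPM in WT Ngn3-Pdx1 cells, 0.323, 8.48 and 0 CPM in WT Ngn3-MafA cells, and 62.4, 38.6 and 8.91 CPM in WT cells with all 3 factors. In 6SA cells it read 36.8, 27.1 and 14.6 CPM, 10.6, 6.23 and 0 CPM, and 21.2 and 13.0 CPM. Both zeros were passage 5 Ngn3-MafA samples, in which a count of 0 allows up to 0.454 and 0.458 CPM (WT and 6SA), and the Ngn3-MafA samples were low as a group. Only 5 reads of Pax4 were counted in the 15 samples without Ngn3, and the log2 difference was 8.17 ± 0.90 (SE, adjusted p = 1.54e-07, edgeR). Fev (chr1:74881509-74885419, minus strand), an ETS factor of endocrine precursors and of serotonergic neurons, read from 0.151 to 32.5 CPM with Ngn3, with a median of 4.83 CPM, and at most 1.58 CPM without it. Replicate 2 was the highest of its condition for Fev in all 4 conditions with Ngn3-Pdx1 or Ngn3-MafA. Its log2 difference was 7.46 ± 0.95 (SE, adjusted p = 2.7e-06, edgeR).

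Detection in single libraries followed the same division. Of the 29 libraries with Ngn3, 25 held reads of all 10 factors, and the remaining 4 lacked Pax4 alone. The 29 libraries without Ngn3 held reads of 0 to 7 of the factors, with a median of 4.

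Set per kilobase of exon, so that genes of different length can be compared, the levels in cells with Ngn3 fell into an upper and a lower tier. The mean of the 6 condition means was 68.2 CPM per kb for Neurog3, 50.3 for Neurod1, 44.6 for Isl1, 43.7 for Rfx6 and 27.5 for Insm1. It was 12.1 CPM per kb for Pax4, 6.69 for Myt1, 5.08 for Fev, 3.67 for Nkx2-2 and 3.53 for Pax6. The step from Insm1 to Pax4 was the most regular, with Insm1 the higher in 14 of 17 samples. Within the tiers the order was not steady: each factor stood above the next in 9 to 11 of the 17 samples, as Isl1 did above Rfx6 in 9. Exon lengths join all annotated isoforms, so the value of a gene with many isoforms such as Pax6 is a low estimate.

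The next question was whether Ngn3 raised the factors in each partner setting. Neurog3, whose rise follows from the vector and the sort, is included in the count of each comparison in the main fit. With Pdx1 as the partner, WT Ngn3 raised 4 of 10 factors at an adjusted p under 0.05 (Neurog3, Neurod1, Rfx6 and Isl1; 0.108% of all genes were higher in that comparison, edgeR), and 6SA Ngn3 raised 8 (0.367% of all genes), with Pax4 at an adjusted p of 0.06 and Fev at 0.368. With MafA as the partner, WT Ngn3 raised 7 (0.308% of all genes), with Pax6 at 0.156, Fev at 0.215 and Pax4 at 0.488, and 6SA Ngn3 raised 8 (1.17% of all genes), with Pax4 at 0.0646 and Fev at 0.168. In the latter comparison same-numbered samples deviated together, and blocking on that number called 9 (2.69% of all genes were higher), Pax4 being added at an adjusted p of 0.0109 (edgeR). With both partners, WT and 6SA Ngn3 each raised all 10 (2.48% and 3.29% of all genes). Each of the 10 factors had an unadjusted p under 0.05 in each of the 6 comparisons, as had 1201 to 4921 of all genes (edgeR). Without replicate 2 the number of factors raised fell from 8 to 2 with MafA in 6SA cells, while that of all genes fell from 280 to 14. With both partners in WT cells it fell from 10 to 4, while that of all genes fell from 595 to 42. In the other comparisons a group was left with a single sample, which was assumed to vary like the others, and no count is given for them here. In the WT Pdx1 comparison, which has the fewest in the main fit, DESeq2 called 10 and the fit without replicate 3 called 8. Of all genes 197 and 160 were then higher, against 26 in the main fit.

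Isl1 and Pax4 had the largest differences between partners. Ngn3-Pdx1 and Ngn3-MafA cells were compared directly over WT and 6SA samples, with no cells without Ngn3 in the contrast. Isl1 read from 30.0 to 574 CPM with a median of 240.6 CPM in the 6 Ngn3-Pdx1 samples and from 8.17 to 144 CPM with a median of 89.9 CPM in the 6 Ngn3-MafA samples, and it was higher with Pdx1 in 6 of 6 pairs of the same form and number. The log2 difference was 1.90 ± 0.63 (SE, 95% interval 0.59 to 3.21, adjusted p = 0.324, edgeR). None of the 10 factors passed the threshold, with 2 at an unadjusted p under 0.05 (DESeq2: 0 past the threshold and 2 unadjusted), and 0.133% of all genes passed it. Same-numbered samples deviated together here, and with the number as a block Isl1 was the 1 factor called, at 2.11 ± 0.36 (SE, adjusted p = 0.00248, edgeR), against 0.900% of all genes. Pax4 was higher with Pdx1 in 5 of 6 pairs, with medians of 20.9 and 3.28 CPM and a log2 difference of 2.37 ± 0.92 (SE, interval 0.46 to 4.29, adjusted p = 0.413, and 0.0874 with the block, edgeR).

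Adding Pdx1 to Ngn3 and MafA was compared in the same way. Without the block none of the factors passed the threshold (2.72% of all genes did), with 1 at an unadjusted p under 0.05 by edgeR and by DESeq2. With the block, which the samples met the condition for, 3 factors were higher with all 3 transgenes, against 8.49% of all genes in either direction: Neurod1 by 0.98 ± 0.25 (SE, adjusted p = 0.0141, edgeR), Pax4 by 2.60 ± 0.73 (adjusted p = 0.0255) and Isl1 by 1.16 ± 0.36 (adjusted p = 0.0459) on the log2 scale. Each was higher in 5 of 5 same-numbered pairs. The 6SA cells with all 3 factors have no passage 5 sample, and without replicate 3 Pax4 differed by 2.22 on the log2 scale (adjusted p = 0.151, edgeR).

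Adding MafA to Ngn3 and Pdx1 left every factor short of the threshold, with 1.88% of all genes past it and 1 factor at an unadjusted p under 0.05 by edgeR and by DESeq2. That factor was Neurog3, at 1.48 ± 0.63 higher with MafA (SE, interval 0.15 to 2.80, adjusted p = 0.252, edgeR), and without replicate 1 its difference was 2.60 (adjusted p = 0.00302, edgeR). Insm1 was higher with MafA in 5 of 5 same-numbered pairs, although the samples did not meet the condition for pairing here (lowest correlation -0.335). The log2 difference of Isl1 was -0.98 ± 0.66 (SE, adjusted p = 0.515, edgeR). These 3 comparisons share samples with one another, and so their values are not independent.

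WT and 6SA Ngn3 were compared because phosphorylation of Ngn3 is known to restrain its activity. None of the 10 factors passed the threshold, and none had an unadjusted p under 0.05 by edgeR or DESeq2. Of all genes 0% passed it by edgeR, although 1421 had an unadjusted p under 0.05 and DESeq2 called 26. Rfx6 was higher with 6SA in 8 of 8 pairs of the same combination and number, with a log2 difference of 0.82 ± 0.47 (SE, interval -0.16 to 1.80, adjusted p = 0.88, edgeR), and so was Neurod1, at 0.69 ± 0.42 (SE, interval -0.19 to 1.57, adjusted p = 0.904, edgeR). Pax6 and Myt1 were higher in 7 of 8 pairs and Nkx2-2 and Fev in 6. Neurog3, Insm1 and Isl1 were higher in 4 and Pax4 in 3. These pairs go by number only, since the samples did not meet the condition for pairing here (lowest correlation -0.131). Neurog3 itself differed by 0.62 ± 0.51 (SE, interval -0.43 to 1.68), so that its own level was not matched closely enough to set the forms side by side at equal dose. The median difference of the 10 factors was 0.63 on the log2 scale and that of all genes 0.08. The test of whether the effect of Ngn3 itself differed between 6SA and WT cells also called none of the 10 and 0% of all genes, with none of the factors and 647 of all genes at an unadjusted p under 0.05, and DESeq2 called 5 genes. The interval of Rfx6 reaches 1.80 on the log2 scale, so these data do not show that both forms act alike.

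**Figure D2:**
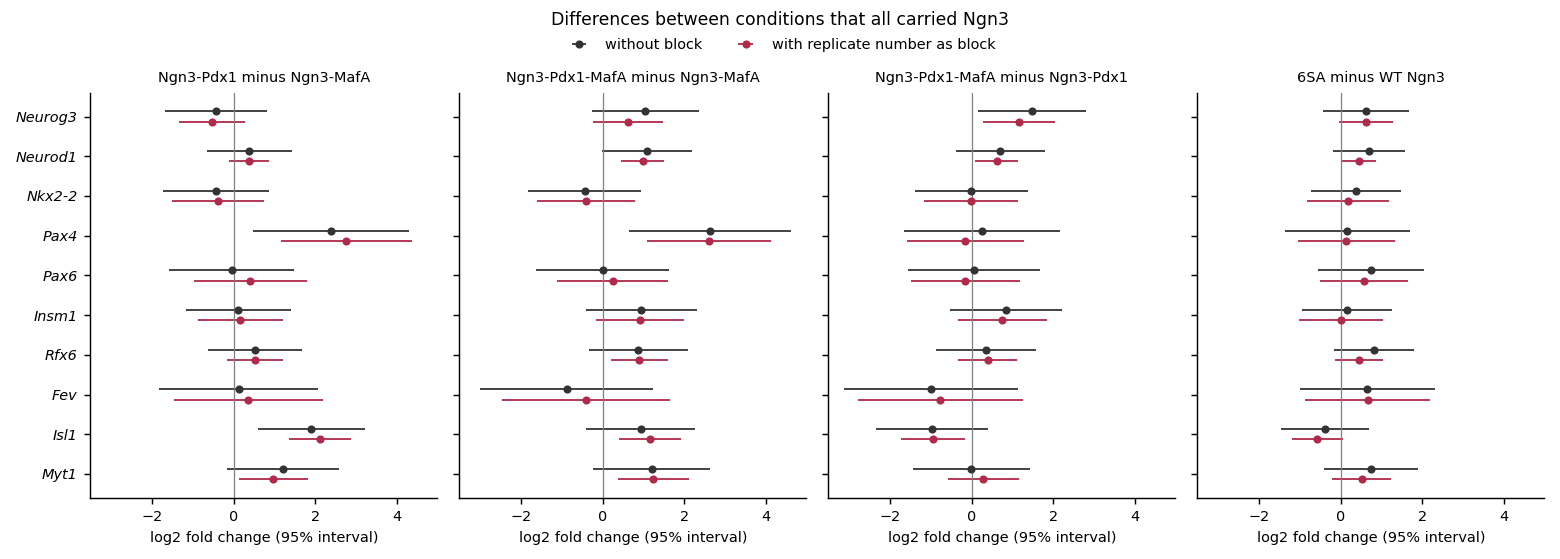
Fitted log2 fold change (edgeR, points) with its 95% interval (bars) for each factor in the 4 comparisons between conditions that all carried Ngn3, without a block (black) and blocked on replicate number (red). Isl1 lies at 1.90 without the block and at 2.11 with it for Ngn3-Pdx1 minus Ngn3-MafA, and the intervals of all 10 factors without the block include 0 for 6SA minus WT.

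The passage 5 samples stood apart from the passage 2 samples within the cells that received Ngn3. This comparison was added after the values were seen. In the 5 conditions that have a passage 5 sample, that sample was the lowest of the 3 in 45 of 50 combinations of factor and condition (90%), and over all genes it was so in 28.2%. Neurod1, Pax6, Rfx6, Isl1 and Myt1 were lowest at passage 5 in all 5 conditions. A fit of condition and passage on the 17 samples with Ngn3, 5 of them at passage 5, called 8 of the 10 factors lower at passage 5, against 4.22% of all genes (edgeR). All 5 carry replicate number 3. The p-values of this fit therefore measure the spread between sorted samples, not between passages or replicates.

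**Figure D3:**
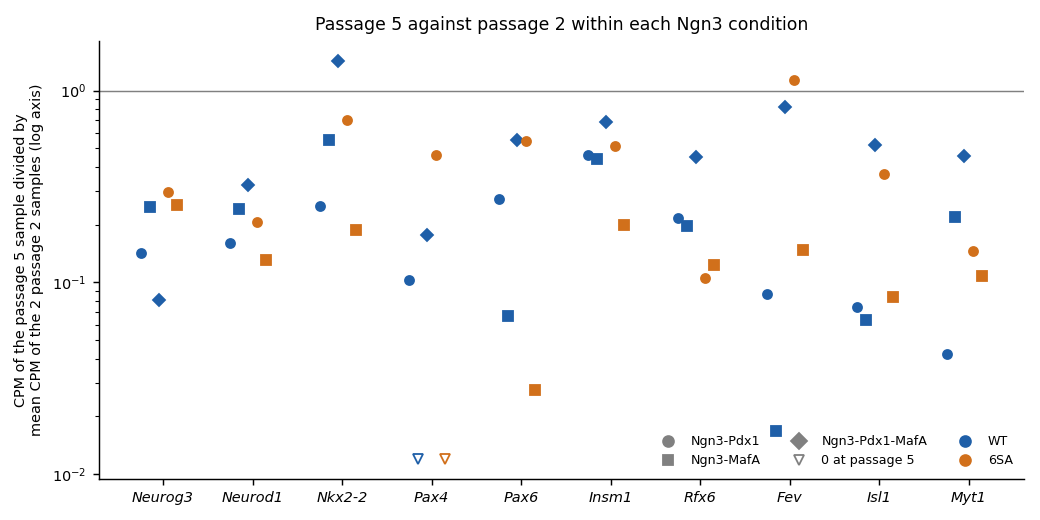
Ratio of the passage 5 sample (replicate 3) to the mean of the passage 2 samples for each factor in each of the 5 conditions with Ngn3 that have both (points), on a log axis, with open triangles where the passage 5 sample was at 0. Most points lie below the line at a ratio of 1, with medians from 0.0839 for Isl1 to 0.550 for Nkx2-2.

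Neurog3 was among the 8, at -2.37 ± 0.43 on the log2 scale (SE, adjusted p = 0.00185, edgeR), from a median of 148 CPM in 12 passage 2 samples to 24.9 CPM in 5 passage 5 samples. Neurod1 fell by 2.29 (SE 0.27, adjusted p = 8.69e-05), Rfx6 by 2.34 (SE 0.34, adjusted p = 0.000333) and Myt1 by 2.60 (SE 0.43, adjusted p = 0.000791). Isl1 was lower by 2.54 ± 0.44 (adjusted p = 0.00122), as were Pax4, Pax6 and Insm1 by smaller or less certain amounts (adjusted p = 0.0261, 0.0261 and 0.0196). Nkx2-2 and Fev did not pass, at adjusted p-values of 0.25 and 0.194. Without replicate 1 Pax4 and Pax6 were no longer called and Fev was, and without replicate 2 Insm1 was not called. In the same fit 8 of 9 endocrine markers and 4 of 4 neuron markers were lower at passage 5, and none of the 11 duct markers was. Since a lower level of the vector-borne Neurog3, fewer responding cells in the pool, time in culture and the replicate itself all go with the same samples, they cannot be told apart.

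Whether the factors track the amount of Neurog3 was examined over the 17 samples with Ngn3, on log2(CPM + 1), as 9 relations with p-values from 100000 permutations, 2-sided and adjusted over the 9. Neurod1 followed Neurog3 most closely (Pearson r = 0.790, adjusted permutation p = 0.00099, Spearman rho = 0.826, adjusted permutation p = 0.00144), and Rfx6 came next (r = 0.744, adjusted permutation p = 0.00256, rho = 0.767, adjusted permutation p = 0.0024). Myt1 (r = 0.685, rho = 0.703), Pax6 (r = 0.652, rho = 0.750) and Pax4 (r = 0.559, rho = 0.573) also passed, at adjusted permutation p-values for r of 0.00696, 0.0101 and 0.0370. Blocked on replicate number, none of the 9 relations passed, and r was 0.422 for Neurod1 (adjusted permutation p = 0.518). Isl1, Insm1, Nkx2-2 and Fev did not pass even without the block, with unblocked r of 0.465, 0.457, 0.424 and 0.173. Without the 2 samples farthest from the median Neurog3 level, 3 relations passed, those of Neurod1 (r = 0.707), Rfx6 (r = 0.666) and Pax6 (r = 0.646).

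Within passage 2, 12 samples, none of the 9 relations passed: r was 0.569 for Neurod1 and 0.536 for Rfx6, and it was below 0 for Isl1 (-0.07), Nkx2-2 (-0.206) and Fev (-0.581). The 5 passage 5 samples are too few for a correlation. The 5 relations that had passed over all samples kept an r above 0 within passage 2, with 0.465 for Pax6, 0.449 for Pax4 and 0.201 for Myt1. With 12 samples, falling short of the threshold does not show that a relation was absent. Over the 9 WT and the 8 6SA samples taken apart, r was 0.803 and 0.752 for Neurod1, 0.561 and 0.193 for Nkx2-2, and 0.514 and -0.442 for Fev.

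**Figure D4:**
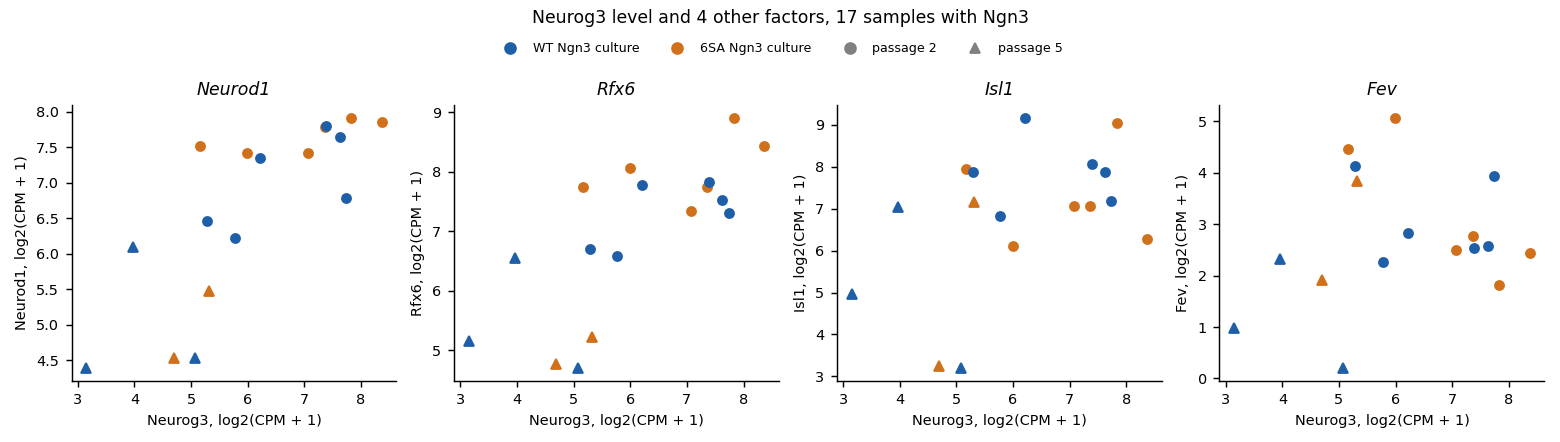
Level of Neurod1, Rfx6, Isl1 and Fev against that of Neurog3 in the 17 samples with Ngn3 (points), both axes as log2(CPM + 1), with triangles for passage 5. Passage 5 samples gather at the low end of Neurog3, and Pearson r over all samples runs from 0.173 for Fev to 0.790 for Neurod1.

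Technical repeats gave a measure of the spread between libraries of the same sample. In the 8 samples with Ngn3 that had more than 1 kept library, 20 libraries in all, the median coefficient of variation of counts per 1000000 plain gene counts between them was 0.244 for Insm1, 0.277 for Isl1, 0.403 for Neurog3, 0.424 for Neurod1 and 0.551 for Fev. Between the samples of a condition, likewise on plain gene counts, it was 0.450 for Insm1, 0.763 for Isl1, 0.806 for Neurog3, 0.659 for Neurod1 and 0.897 for Fev. Nkx2-2 went the other way, at 0.366 between libraries and 0.330 between samples. Pax4 had no read in 2 of the 20, and no other factor was missing from any of them.

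Other genes of the endocrine programme were read from lists. Of 25 further endocrine transcription factors tested, 12 were higher and 1 was lower in cells with Ngn3 over all combinations (edgeR), beside the 11.1% and 10.5% of all genes. St18, a zinc-finger relative of Myt1, rose by 10.54 ± 0.68 on the log2 scale (SE, adjusted p = 2.27e-11, edgeR) and was 1 of 2 genes of this list higher in all 6 separate comparisons, with Runx1t1. Glis3, which supports progenitor and beta cell genes, fell by 1.72 (SE 0.21). The smallest rise among the 12 was that of Rfx3, a relative of Rfx6, at 1.18. Of 17 tested paralogues, the relatives of the 10 factors that share their DNA-binding domains, 5 were higher (St18, Neurod2, Rfx3, Insm2 and Myt1l) and 2 were lower (Pax8 and Pax9, a share near that of all genes), with a median of 0.10 against 8.40 for the factors themselves. Beside St18, the largest rise in this list was that of Myt1l, at 7.77, and Pax8 and Pax9 fell by 2.67 and 1.76 (adjusted p = 0.0421 and 0.0345, edgeR). Among 8 transcription factors of ducts and progenitors, 1 was higher (Prox1, by 1.47). St18, Rfx3 and Prox1 each stand in 2 of these lists.

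Markers of cell types were read beside the factors. All 9 endocrine markers tested and all 4 neuron markers were higher in cells with Ngn3, and 8 of 11 duct markers were lower (edgeR). The neuron markers, some of which islet cells also express, summed to 17.6 to 1024 CPM with Ngn3 and to 0.286 to 17.04 CPM without it. Acinar markers, 1 higher and 1 lower of 4 tested, stayed at or below 49.7 CPM in sum, and Ptf1a and Pnlip were at 0 in both groups. None of 4 mesenchyme or 2 blood and endothelium markers tested passed the threshold. The mesenchyme sum reached 296 CPM in replicate 1 of WT Ngn3-MafA cells, with Dcn at 0, against at most 13.2 CPM in samples without Ngn3. Without that sample all 10 factors were still called over all combinations.

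The genes whose level over the 12 conditions was most like the mean profile of the 10 factors were Vwa5b2 (r = 0.998), St18 (0.997), Kcnb2, Pcsk2 and Ffar2 (0.996 each). The likeness rests mainly on the step between cells with and without Ngn3: over the 6 conditions with Ngn3 alone the same genes gave 0.956, 0.925, 0.855, 0.867 and 0.845. In all, 63 of 23994 other genes exceeded 0.98 over the 12 conditions. These are descriptions over condition means, with shared libraries behind all points.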

How the data were processed

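Gene counts were deposited per library. The authors aligned single-end reads of 50 bases to mm10 with GSNAP and counted them over Ensembl release 81 genes with HTSeq (0.5.3p3 per the submitters' processing notes), and the deposited values are raw counts. The strand setting is not given in the sources used here. Rows naming no gene took 33.9% to 67.3% of a library's total and were left out. The 3 libraries under 1000000 gene counts were left out of all comparisons.

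Counts of technical repeats were summed. Genes with reads in at least 5 libraries and a variance above 0.001 were kept, which left 24004. The main test was edgeR 4.0.16 (R 4.3.3), quasi-likelihood, over all 12 conditions with 20 residual degrees of freedom and TMM scaling, and p-values were adjusted over all genes by Benjamini-Hochberg in each comparison. The passage fit used the 17 samples with Ngn3. CPM are counts per 1000000 of the TMM-scaled library size. Values of single libraries are per 1000000 plain gene counts. Folds set the reference to at least 3 counts where it held 3 or fewer in each sample. Intervals are 95% intervals. Promoters came from RefSeq, GRCm38.p6, and gene positions from the GRCm38 annotation. The fit was tested on simulated counts.

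Alternatives were plain totals and DESeq2's size factors as scaling, DESeq2 1.42.0 as the test, no gene filter, edgeR's newer dispersion method, a replicate block, and leaving out each replicate. The numbers were taken to pair samples where at least 3 pairs correlated above 0.1 without exception over the 5000 most highly expressed genes. This held for Ngn3-Pdx1 against Ngn3-MafA (lowest 0.159), for all 3 factors against Ngn3-MafA (lowest 0.137), and for the MafA comparison in 6SA (lowest 0.234) and the Pdx1-MafA comparison in WT cells (lowest 0.127). The genes named are the 10 members, the 2 highest and 2 lowest past the threshold in the lists of endocrine factors and paralogues and the 5 genes most like the members (Pearson correlation of condition means of log2(CPM + 1) with the members' mean z-score). Other genes, named where a count was 5 or fewer, were chosen after their values were seen. Some genes that this rule would name are not reported here. The members and lists were chosen with earlier results of these data known.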

Additional observations from a re-analysis of the deposited data

Results flagged for a closer look

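The 3 libraries left out for depth, which held 241563 to 625650 gene counts and came from cells with all 3 factors, also carried the endocrine factors above the highest library without Ngn3. In WT cells (replicate 2, technical repeat 1) this was so for 10 of the 10 factors, with 83 reads of Neurog3 and 238 of Neurod1 (133 and 380.4 per 1000000 plain gene counts, the scale of all values here). In 6SA cells it was so for 8 in replicate 2 (technical repeat 2), with 24 Neurog3 reads (99.4) and no Pax4 read, and for 8 in replicate 3 (technical repeat 1), with 12 Neurog3 reads (29.4) and 64 of Neurod1 (157). The last is the only passage 5 library of 6SA cells with all 3 factors, so that condition has no passage 5 sample in the comparisons.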

How the results depend on the processing

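All 10 factors were called over all combinations under each alternative run. With Ngn3 added to Pdx1 in WT cells, 10 were called by DESeq2, 9 with no gene filter and 8 with the replicate block (197, 342 and 182 of all genes were higher). Leaving out 1 replicate or sample at a time gave 0 to 8 there, 0 to 9 in 6SA cells, 0 to 8 and 2 to 10 with MafA (WT and 6SA), and 4 to 10 and 5 to 10 with both partners. Between combinations, leaving out the gene filter called 1 factor for 3 factors against Ngn3-Pdx1, 1 for 3 factors against Ngn3-MafA and 2 for Ngn3-Pdx1 against Ngn3-MafA. The newer dispersion method called 1 for 3 factors against Ngn3-MafA. Leaving out replicates gave 0 to 1 for 3 factors against Ngn3-Pdx1, 0 for the other comparisons between combinations or forms of Ngn3, and 7 for passage. The replicate block called 3 for 3 factors against Ngn3-MafA and 1 for Ngn3-Pdx1 against Ngn3-MafA. Apart from these and the WT Pdx1 comparison given above, it moved the count of no comparison by over 1.5 times. Deviations from the group mean correlated at 0.379 on average over 160 same-numbered pairs and at -0.194 over 308 others.

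Of the 9 relations with Neurog3, 5 passed, 3 without the 2 farthest samples, 0 with the replicate block and 0 to 4 without 1 replicate. Leaving out 1 replicate gave r of -0.21 to 0.62 for Nkx2-2, -0.58 to 0.36 for Fev and -0.07 to 0.61 for Isl1, with the lowest of each without replicate 3. With the block r was -0.0174 for Insm1, -0.28 for Fev and -0.10 for Isl1. Of 1134 values for single genes under an alternative, 1001 kept direction and call, 56 became significant, 71 lost significance and 6 reversed. Where a result changed the cause was not tested. With 2 to 3 samples per condition and 5 to 66 reads of each factor in all samples without Ngn3, the size of a difference is less certain than its direction.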
